A study of Homo sapiens with 4 samples.

Results

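The ATF4 amino acid response and the cytoplasmic tRNA synthetases were examined in A549/146b and A549/vec cells as 35 genes, 20 synthetases and 15 genes of amino acid synthesis, amino acid transport and stress signalling. Members were chosen by gene symbol, current or older, from the array's annotation, which names 16923 genes. Of the members, 34 had an annotated probe, with 42 probes in all. A549 is a lung adenocarcinoma cell-line. A549/146b cells were transduced with a pLemiR lentiviral vector that expresses pre-miR-146b from the untranslated end of a red fluorescent protein gene under the cytomegalovirus promoter, and A549/vec cells with the same vector without the insert. Both are puromycin-selected populations and not single clones, both were kept in puromycin, and they were grown side by side on 2 occasions, which gives 2 arrays per cell-line. Cells were detached with trypsin before RNA isolation.

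Each synthetase charges one amino acid, or for EPRS a pair of them, onto its tRNAs. When an amino acid runs short, uncharged tRNA activates the kinase GCN2 (gene EIF2AK4), which phosphorylates the initiation factor eIF2alpha. General translation then slows while that of the transcription factor ATF4 rises, and stress of the endoplasmic reticulum reaches ATF4 through another kinase. ATF4 binds C/EBP-ATF response elements in genes of amino acid synthesis (ASNS), transport (SLC7A5, SLC3A2) and stress feedback (TRIB3, DDIT3, CHAC1, SESN2) and in many cytoplasmic synthetase genes. ATF4 is controlled largely at translation, which an array of mRNA does not measure.

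The vector's insert gives rise to a pair of mature microRNAs, shown in RefSeq's sequence with the seed, bases 2 to 8, in capitals because it is the part that pairs with target mRNAs.
hsa-miR-146b-5p: uGAGAACUgaauuccauaggcug
hsa-miR-146b-3p: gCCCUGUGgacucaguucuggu
Both lie in the MIR146B gene on the + strand of chromosome 10 in GRCh38.p14, at chr10:102436520-102436542 and chr10:102436557-102436578. The microRNAs themselves were not measured on these arrays.

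Members were chosen by name and not by sequence, although the element through which ATF4 acts helps to define the response. The core of the C/EBP-ATF response element, TGATGNAA on either strand (TTNCATCA on the other), was searched in RefSeq's windows of 250 bases before to 50 bases after each annotated gene start. Windows were found for 29 of the 35 members, and those without one include LARS, VARS, YARS, PSPH and SHMT2. The letters occurred in 7 of 16 synthetase genes (43.8%) and in 3 of 13 amino acid and stress genes (23.1%), against 4.46% of the 27305 genes with a window. A match describes the sequence and does not show binding, and no test was made. The windows of 30 bases around the match are shown for the 6 matched members with the largest differences below 0 and for the 1 tested member above 0, in the direction of the gene, with the element in capitals.
SLC3A2: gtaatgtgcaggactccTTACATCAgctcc
MARS: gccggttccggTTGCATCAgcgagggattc
CARS: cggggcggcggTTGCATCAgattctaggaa
TARS: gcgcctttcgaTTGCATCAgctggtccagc
ASNS: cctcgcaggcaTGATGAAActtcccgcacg
GARS: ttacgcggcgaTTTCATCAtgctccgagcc
NARS: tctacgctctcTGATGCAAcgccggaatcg
In GRCh38.p14 these are chr11:62881719-62881748 on the + strand for SLC3A2, chr12:57488053-57488082 (+) for MARS, chr11:3057407-3057436 (-) for CARS, chr5:33440956-33440985 (+) for TARS, chr7:97872458-97872487 (-) for ASNS, chr7:30594834-30594863 (+) for GARS and chr18:57621804-57621833 (-) for NARS. In SLC3A2, MARS, CARS, TARS and GARS the letters lie on the strand opposite to the gene, and in ASNS and NARS on the gene's own strand. ASNS, which carries the element 68 bases before its start, is the gene in which the nutrient-sensing form of this element is best known. AARS, IARS and CHAC1 also held a match. Among tested synthetases the median log2 difference between the cell-lines was -0.10 for the 7 with a match and -0.09 for the 8 with a window and no match. The 2 tested amino acid and stress genes with a match were ASNS (-0.11) and SLC3A2 (-0.33, which was 0.09 without A549/vec replicate 1), and the 9 without had a median of -0.04.

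Values are the authors' normalized signals on a linear scale, and differences are log2 of A549/146b over A549/vec within an occasion. Of 24526 probes, 10559 were detected (p under 0.01) on 1 array or more and entered a limma fit that blocked on the occasion. P-values were adjusted by Benjamini-Hochberg over the whole table, and a transcript was called at an adjusted p under 0.05. The variance was drawn nearly completely from the pool of all probes (1025 prior degrees of freedom against 1 residual), and the standard error was 0.14 for every tested member. It does not measure a gene's own spread over the 2 occasions. Of the 4 arrays, A549/vec replicate 1 stood apart, with Pearson's r of 0.985 to 0.991 with the other arrays across tested probes, against 0.992 to 0.995 among the others. The log2 differences between the cell-lines had an SD of 0.289 across probes on occasion 1 and of 0.163 on occasion 2. Of the epithelial markers 4 of 5 were tested, with summed signals of 7422 and 5842 in A549/146b and 10214 and 6413 in A549/vec. No marker of alveolar type II cells (8), fibroblasts (7) or endothelial cells (5) had a tested probe, and 2 of 6 leukocyte markers did (CD14 and CD68, summed signals of 757.0 and 596 in A549/146b and 735 and 618 in A549/vec).

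None of the 31 tested members was called between A549/146b and A549/vec, in either direction, against a background of 0.928% of the tested probes (0.436% higher and 0.492% lower). At an unadjusted p under 0.05, and by each member's probe of the highest mean, limma gave 2 members lower, DDIT4 and SLC3A2, and none higher. Of all tested probes 6.03% were lower and 6.21% higher. By other probes, WARS (unadjusted p = 0.00204 from limma) and ATF4 (unadjusted p = 0.0322 from limma, near the detection limit) were lower too. FARSB, the beta subunit of phenylalanyl-tRNA synthetase, SESN2, a leucine sensor that restrains mTORC1, and CHAC1, which degrades glutathione, were detected on no array and were not tested. The differences were small and more often below 0 than above it: 24 of 31 members (77.4%) had a mean log2 difference under 0. Of all tested probes 50.5% had, and of all tested genes, by 1 probe a gene, 47.9%. With median scaling of the signals, 7 of these 24 members turned to the other sign. On both occasions 17 members were below 0 and 4 above, where 29.1% and 29.2% of all tested probes were. The median over the members was -0.08, with -0.11 on occasion 1 and -0.05 on occasion 2, beside a median of 0.00 over all tested probes. Differences of all tested probes ran from -0.12 to 0.12 between the 25th and the 75th percentile. The members' median size of difference between the cell-lines, 0.12, was the same as that of all tested probes. For comparison, their median size was 0.11 between the duplicates of A549/146b, and 0.16 for those of A549/vec. These are unlike measures: a duplicate difference is 1 array minus 1 array. The difference between the cell-lines is a mean over 2 occasions, which varies less. Without A549/vec replicate 1, the array that stood apart, the median was -0.11 for the synthetases and -0.14 for the amino acid and stress genes. The respective medians were -0.08 and 0.01 without A549/146b replicate 1, and -0.07 and -0.19 without A549/146b replicate 2. The 95% confidence intervals from limma extended 0.28 to either side of each member's log2 fold change.

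**Figure D1:**
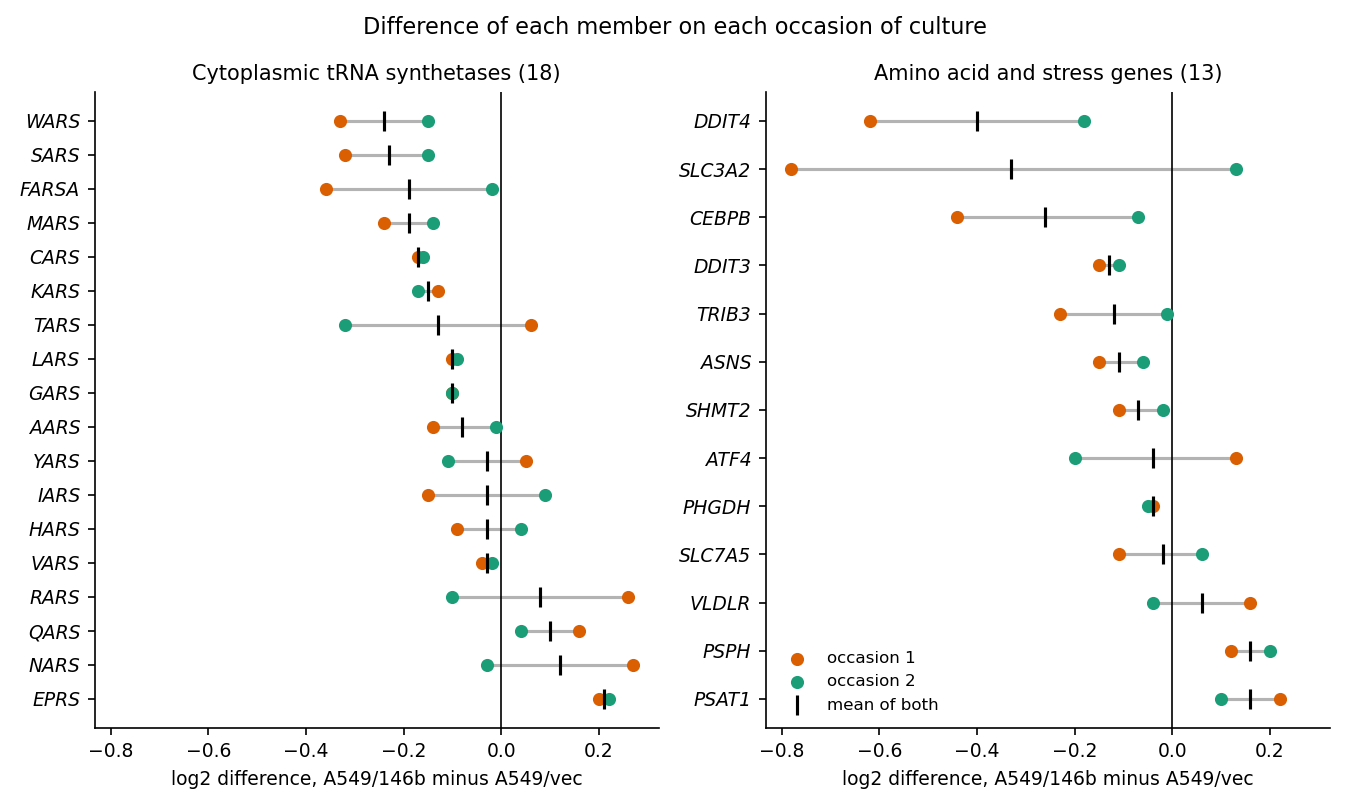
Log2 difference (x axis, A549/146b minus A549/vec) of the 18 tested synthetases and the 13 tested amino acid and stress genes (y axis, 1 row a gene), with occasion 1 in orange, occasion 2 in green and their mean as a black bar. SLC3A2 has -0.78 and 0.13 on the 2 occasions and DDIT4 -0.62 and -0.18, while LARS, GARS and EPRS have nearly the same difference on both.

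The 18 tested cytoplasmic synthetases had a median log2 difference of -0.09, with -0.10 on occasion 1 and -0.09 on occasion 2, and a range from -0.24 for WARS to 0.21 for EPRS. None was called, and none had an unadjusted p under 0.05 with the probe of the highest mean. Of the 18, 14 were below 0 and 10 were below 0 on both occasions. Both A549/146b arrays were below both A549/vec arrays for 8 of them (44.4%), where this held for 22.0% of all tested probes, and both were above for 1, QARS, where 22.0% were.

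WARS, the tryptophanyl-tRNA synthetase, which is also known for its induction by interferon gamma, was read by a pair of probes, and both gave lower signals in A549/146b. The dimmer probe had 653 and 711 in A549/146b replicates 1 and 2 and 955 and 898 in A549/vec replicates 1 and 2. The cell-lines did not overlap, and the A549/vec duplicates differed by 0.09 on the log2 scale, less than the differences of -0.55 and -0.34 between the cell-lines. Its log2 fold change of -0.44 (95% confidence interval -0.72 to -0.16) was the largest in size of any member probe, with an adjusted p of 0.107 from limma, so it was not called. The brighter probe had 1138 and 1239 in A549/146b and 1427 and 1375 in A549/vec. Its groups did not overlap either, and its log2 fold change was -0.24 (95% confidence interval -0.52 to 0.04, adjusted p = 0.511 from limma). Before normalization the brighter probe had signals of 1156.5 and 1139 in A549/146b and 1205 and 1511 in A549/vec, and the dimmer one 660 and 647 in A549/146b and 806 and 988 in A549/vec. The cell-lines were thus apart before normalization too. The dimmer probe had -0.50 to -0.38 with 1 array left out. It passed the test without A549/vec replicate 2 (-0.49, adjusted p = 0.0284 from limma without the block), where A549/vec is read from the array that stood apart and 868 of 10559 probes were called, and not without the others (adjusted p = 0.999 and 0.319 without A549/146b replicates 1 and 2, and 0.447 without A549/vec replicate 1).

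SARS, the seryl-tRNA synthetase, had 260.5 and 269.9 in A549/146b and 325.5 and 299 in A549/vec, a log2 fold change of -0.23 (95% confidence interval -0.51 to 0.05, adjusted p = 0.525 from limma). MARS, the methionyl-tRNA synthetase, had 490.5 and 485 in A549/146b and 580 and 534 in A549/vec (-0.19). FARSA, the alpha subunit of the phenylalanyl enzyme, had 342 and 371 in A549/146b and 438 and 375 in A549/vec (-0.19), with nearly all of the difference on occasion 1. These 3 genes had both A549/146b arrays below both A549/vec arrays, by margins that for FARSA came to 371 against 375. KARS, the lysyl enzyme, had 755 and 745 in A549/146b and 829 and 837 in A549/vec (-0.15), with duplicates that differed by far less than the cell-lines did. LARS (leucyl, 884 and 905 in A549/146b, 950.2 and 965 in A549/vec) and GARS (glycyl, 2889 and 3032 in A549/146b, 3087 and 3239 in A549/vec) both had -0.10 on each occasion to within 0.01. CARS, the cysteinyl enzyme, was near the detection limit, with 94.8 and 104 in A549/146b, where it was not detected, and 107 and 117 in A549/vec, where it was detected on 1 array. Its mean in A549/vec was below the lowest detected signal of the A549/146b arrays, so no bound on its fold can be given.

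EPRS, which joins the glutamyl and prolyl enzymes in one protein, had the highest positive difference of any member. Its signals were 2732 and 3217 in A549/146b and 2372 and 2764 in A549/vec, so that the cell-lines overlapped, although the difference was 0.20 on occasion 1 and 0.22 on occasion 2 (mean 0.21, 95% confidence interval -0.07 to 0.49, adjusted p = 0.581 from limma). QARS, the glutaminyl enzyme, had 3880.4 and 3745 in A549/146b and 3472 and 3642 in A549/vec (0.10). NARS (asparaginyl) and RARS (arginyl) were above 0 on occasion 1, with 0.27 and 0.26, and below 0 on occasion 2, with -0.03 and -0.10. TARS (threonyl) ran the other way, with 0.06 and -0.32. AARS (alanyl, -0.08), YARS (tyrosyl, -0.03), IARS (isoleucyl, -0.03), HARS (histidyl, -0.03) and VARS (valyl, -0.03) had overlapping cell-lines and differences within 0.15 of 0 on each occasion.

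EPRS, IARS, LARS, MARS, QARS, RARS and KARS sit in the multisynthetase complex, a large assembly of synthetases on scaffold proteins. These 7 had a median of -0.03 and a range of -0.19 to 0.21, and the 11 tested synthetases outside it had a median of -0.10 and a range of -0.24 to 0.12. The gap was in the mean of both occasions alone. On occasions 1 and 2 the medians were -0.10 and -0.09 in the complex and -0.10 and -0.10 outside it. The split by complex was made after the values were seen and was not tested. The 12 tested mitochondrial synthetases, which charge tRNAs in mitochondria from nuclear genes of their own, had a median of 0.00, with 6 below 0, a range of -0.24 for SARS2 to 0.18 for NARS2, and no call. HARS2 had 0.15 and IARS2 -0.07. Of the complex's scaffold proteins, AIMP1 was detected on no array.

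The 13 tested amino acid and stress genes had a median log2 difference of -0.07, with -0.11 on occasion 1 and -0.04 on occasion 2. Set against the synthetases, the difference of the medians was 0.02 over both occasions, -0.01 on occasion 1 and 0.05 on occasion 2, small beside the range within either set. Of the 13, 10 were below 0, and 2 had both A549/146b arrays below both A549/vec arrays (SHMT2 and DDIT4, 15.4%, beside 22.0% of all tested probes). Another 2 had both above (PSAT1 and PSPH, 15.4%, also beside 22.0%).

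Among the genes of amino acid synthesis, no pattern was shared by all 5. ASNS, the asparagine synthetase and the standard readout of this response, had 1324 and 1886 in A549/146b replicates 1 and 2 and 1470.3 and 1969 in A549/vec replicates 1 and 2. The cultures of occasion 2 were the higher ones in both cell-lines, by 0.51 in A549/146b and 0.42 in A549/vec on the log2 scale, several times the difference between the cell-lines of -0.11 (95% confidence interval -0.39 to 0.17, adjusted p = 0.831 from limma). Its dimmer probe had 199.6 and 188.5 in A549/146b and 206 and 242 in A549/vec (-0.20). PHGDH, the first enzyme of serine synthesis, showed the same order of arrays, with 2352 and 2875 in A549/146b and 2416 and 2974 in A549/vec (-0.04). The next enzymes of serine synthesis were a little higher in A549/146b: PSAT1 had 1998 and 1991 in A549/146b and 1712 and 1862 in A549/vec, and PSPH had 281 and 318 in A549/146b and 258 and 276.5 in A549/vec. Both had 0.16 (95% confidence interval -0.12 to 0.44, adjusted p = 0.708 and 0.706 from limma), with no overlap between the cell-lines. SHMT2, the mitochondrial enzyme that makes glycine from serine, had 2646 and 2702 in A549/146b and 2857 and 2740.5 in A549/vec (-0.07).

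**Figure D2:**
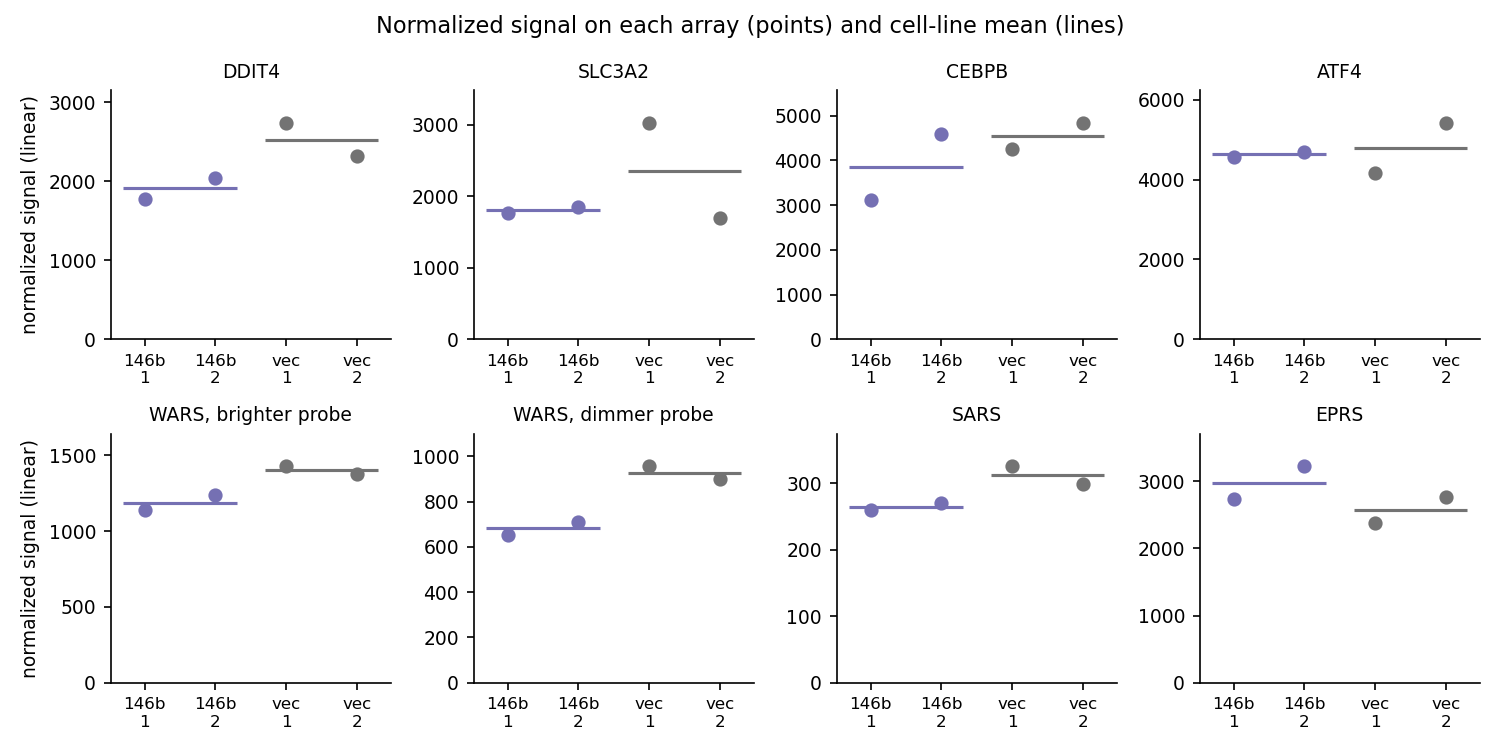
Normalized signal (y axis, linear, from 0) on the 2 A549/146b and 2 A549/vec arrays (x axis), as points, with the mean of each cell-line as a line, for 7 members, WARS by both of its probes. SLC3A2 is high on A549/vec replicate 1 alone (3023, against 1688 to 1842 on the other arrays), and both WARS probes and SARS separate the cell-lines.

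All 5 tested transcription factors and stress genes had a mean difference below 0. Without A549/146b replicate 1, DDIT4 had -0.30, while ATF4 had -0.02, DDIT3 0.00, TRIB3 0.01 and CEBPB 0.02. ATF4 itself had 4558 and 4703 in A549/146b and 4176 and 5419 in A549/vec with its brightest probe, a log2 fold change of -0.04 (95% confidence interval -0.32 to 0.24, adjusted p = 0.950 from limma), with both A549/146b arrays between the A549/vec arrays, and its sign turned with median scaling (0.02) and without A549/vec replicate 2 (0.15). Its next probe had 276.5 and 290.3 in A549/146b and 299 and 317 in A549/vec (-0.12). The dimmest ATF4 probe was detected on A549/vec replicate 1 alone, with 79.4 and 86.1 in A549/146b and 116 and 90.4 in A549/vec. CEBPB, a partner of ATF4 on the response element, had 3123 and 4597 in A549/146b and 4249 and 4837 in A549/vec (-0.26, 95% confidence interval -0.54 to 0.02, adjusted p = 0.461 from limma). Its low array was A549/146b replicate 1, and the A549/146b duplicates differed by 0.56 on the log2 scale. Without that array its log2 fold change was 0.02. DDIT3, the pro-apoptotic factor CHOP, had 167 and 199 in A549/146b and 185 and 215 in A549/vec (-0.13), and TRIB3, a pseudokinase that feeds back on ATF4, had 1918 and 2296 in A549/146b and 2245.5 and 2318 in A549/vec (-0.12). For both the cell-lines overlapped.

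DDIT4, an inhibitor of mTORC1 that ATF4, hypoxia and glucocorticoids induce, had the largest difference of the members by the probe of the highest mean. Its signals were 1779 and 2038 in A549/146b replicates 1 and 2 and 2737.5 and 2315 in A549/vec replicates 1 and 2. The cell-lines did not overlap, and the difference was -0.62 on occasion 1 and -0.18 on occasion 2. The log2 fold change was -0.40, a 24.4% lower level (95% confidence interval -0.68 to -0.12, adjusted p = 0.164 from limma), so it was not called. Leaving out A549/vec replicate 1 gave -0.28. Leaving out A549/vec replicate 2 gave -0.52, with A549/vec then read from replicate 1 alone, the array that stood apart.

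SLC3A2 and SLC7A5 encode the heavy and light chains of the LAT1 transporter, which brings in leucine and other large neutral amino acids. SLC3A2 had 1759 and 1842 in A549/146b replicates 1 and 2 and 3023 and 1688 in A549/vec replicates 1 and 2. Its value on A549/vec replicate 1 was 0.84 above that of the duplicate on the log2 scale, and the other 3 arrays lay close together. The difference was thus -0.78 on occasion 1 and 0.13 on occasion 2, with a mean of -0.33 (95% confidence interval -0.61 to -0.05, adjusted p = 0.313 from limma). Leaving out A549/vec replicate 1 turned it to 0.09. Leaving out A549/vec replicate 2 gave -0.75, with A549/vec then read from replicate 1 alone, the array that stood apart. SLC7A5 had the same signs on the 2 occasions at a smaller size, -0.11 and 0.06, with 12138 and 11220 in A549/146b and 13090 and 10748 in A549/vec (-0.02, adjusted p = 0.975 from limma). VLDLR, a lipoprotein receptor that ATF4 induces, had 223 and 219.5 in A549/146b and 199.8 and 226 in A549/vec (0.06), and its other probe was detected on no array.

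**Figure D3:**
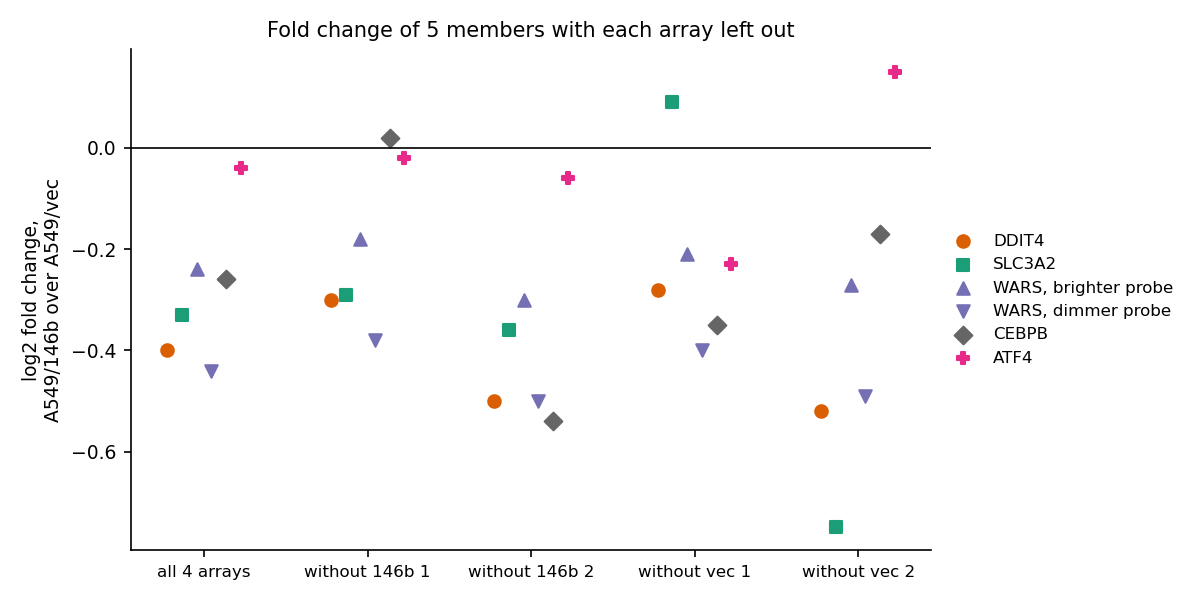
Log2 fold change (y axis, A549/146b over A549/vec) of DDIT4, SLC3A2, WARS by both probes, CEBPB and ATF4 by its brightest probe, with all 4 arrays (fit with the block) and with each array left out (fits without the block) on the x axis. SLC3A2 runs from -0.75 to 0.09 and ATF4 from -0.23 to 0.15, whereas DDIT4 stays between -0.52 and -0.28 and the brighter WARS probe between -0.30 and -0.18.

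None of the 8 tested genes listed upstream of ATF4 was called. These genes are the eIF2alpha kinases, GCN1, eIF2alpha itself and subunits of the phosphatase that reverses its phosphorylation. Of them, 5 had both A549/146b arrays above both A549/vec arrays and 2 had both below, where 22.0% of all tested probes did each, and the median was 0.13. EIF2S1, which encodes eIF2alpha, had 0.28, with 0.51 on occasion 1 and 0.04 on occasion 2, and the kinase EIF2AK2 (PKR) had 0.25, with 0.32 and 0.19. The 2 lower ones were PPP1R15A (GADD34), the stress-induced subunit of that phosphatase, with 1528 and 1807 in A549/146b and 2001 and 2028 in A549/vec (-0.28, adjusted p = 0.414 from limma), and a catalytic subunit of it, PPP1CA with 339 and 334.5 in A549/146b and 402 and 418.5 in A549/vec (-0.29). EIF2AK4, the amino acid sensor GCN2, had 0.15 (adjusted p = 0.737). Another catalytic subunit, PPP1CB, is in none of the lists and was added after its value was known. The study already reports PPP1CB as higher in these data. It was called, with 694.5 and 672 in A549/146b and 428 and 494 in A549/vec (0.57, adjusted p = 0.0179 from limma), and was not called without either A549/146b array (adjusted p = 0.528 without replicate 1 and 0.169 without replicate 2) or without A549/vec replicate 1 (adjusted p = 0.212). EIF2AK3, the kinase of the endoplasmic reticulum branch, was not analysed here.

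Nor was any of the 25 tested genes, beside the members, that ATF4 is known to induce, of which 10 were below 0, with a median of 0.03. SLC38A2, a transporter of small neutral amino acids, had 972 and 849 in A549/146b and 656 and 756 in A549/vec (0.37, adjusted p = 0.228 from limma), and BCAT1, which starts the breakdown of branched-chain amino acids, had 0.34 (adjusted p = 0.287). NUPR1, a stress-induced chromatin protein, had 132 and 138 in A549/146b and 178 and 166 in A549/vec (-0.35, adjusted p = 0.273), and GDF15, a secreted stress cytokine, had 2316 and 2512 in A549/146b and 3056 and 2980 in A549/vec (-0.32, adjusted p = 0.318). The cell-lines did not overlap for these 4, and over the whole list both A549/146b arrays were below both A549/vec arrays for 8 genes and above for 6, beside 22.0% of all tested probes in each direction. The 16 tested chaperones and regulators of the other branches of the endoplasmic reticulum stress response had a median of 0.04, with HSPA5 (BiP), the main chaperone of that compartment, at 619 and 666 in A549/146b and 489 and 523 in A549/vec (0.34, adjusted p = 0.280) and the disulfide isomerase PDIA6 at -0.34 (adjusted p = 0.290). HYOU1 had -0.24 and PDIA4 -0.23. Of 9 tested genes of carbon and nitrogen metabolism beside serine synthesis, only CPS1 was called, where 0.436% of all tested probes were called higher. The study already reports CPS1 as higher in these data. It makes carbamoyl phosphate for urea synthesis and rose by 0.68 on the log2 scale, with 539 and 449 in A549/146b and 338 and 280.0 in A549/vec (adjusted p = 0.00173 from limma), but was not called without A549/146b replicate 1 (0.54, adjusted p = 0.547). MTHFD1, an enzyme of folate metabolism, had -0.18, and the urea cycle enzymes ASS1 and ASL had 0.12 and -0.09.

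The differences of DDIT4 and SLC3A2, larger on occasion 1, stood beside those of the immediate early genes, whose transcription follows quickly on serum and handling. The 18 tested of 22 had a summed signal of 13592 and 13384 in A549/146b and of 17159 and 14051 in A549/vec. The sum was highest on A549/vec replicate 1, the array on which SLC3A2 and DDIT4 were also highest. Bright genes weigh most in it, such as DUSP1 with 5458 on that array and 4258 on A549/vec replicate 2. The list was not uniform, with 14 of the 18 below 0. MYC (0.23), DUSP6 (0.27) and KLF4 (0.14) were above 0 and were lowest on A549/vec replicate 1. DUSP6 and KLF4 were near the detection limit, detected on 1 A549/vec array each. Of the 18, 5 were called lower in A549/146b, where 0.492% of all tested probes were. They were FOSB (-0.78, adjusted p = 8.46e-05 from limma), FOS (-0.59, 0.0116), ZFP36 (-0.58, 0.0171), EGR1 (-0.51, 0.0473) and KLF6 (-0.50, 0.0492). The list was chosen with earlier results of these data known, and the study already reports FOS, FOSB and ZFP36 as lower in them. The share of called genes in this list is thus not an independent result. For FOSB and FOS the cell-lines overlapped, and the A549/vec duplicates differed by 1.11 and 0.88 on the log2 scale, more than the cell-lines did. Without A549/vec replicate 1 none of the 5 was called, and FOSB had -0.23 and FOS -0.16. Any part of the handling of the cells in the values of DDIT4 and SLC3A2 was not tested.

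**Figure D4:**
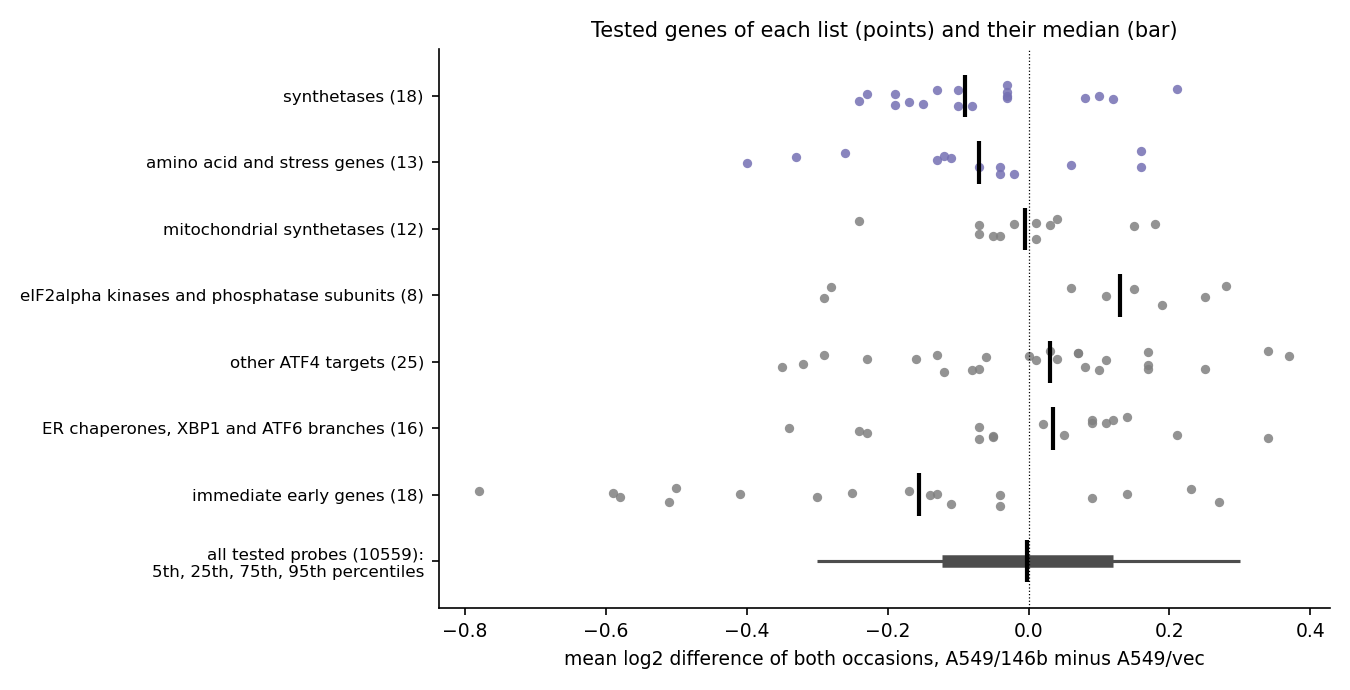
Mean log2 difference of both occasions (x axis, A549/146b minus A549/vec) for each tested gene (points) and its list's median (bar), with the members in purple and other lists in grey, above the 5th, 25th, 50th, 75th and 95th percentiles of all tested probes. The medians of the synthetases (-0.09) and of the amino acid and stress genes (-0.07) lie below the 0.00 of all tested probes and within its 25th to 75th percentiles of -0.12 to 0.12.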

How the data were processed

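RNA of 2 A549/146b and 2 A549/vec cultures was read on HumanRef-8 bead arrays. The authors' deposited files hold intensity values as GenomeStudio signals before normalization, detection p-values, and normalized intensity values made in lumi 1.14 under R 2.11.1 (background correction, variance stabilization, robust splines). The normalized values are linear, and the median per array was 82.6 to 82.8. No arrays were pooled, and having 2 arrays per cell-line limits the precision. Each cell-line is a transduced, puromycin-selected population, so its arrays replicate the culture and not the transduction. An effect of the insert cannot be told apart from other differences between the populations. The platform annotation names 1 gene for 21834 probes and none for 2692. log2 values were fitted with limma 3.58.1 in R 4.3.3, which was tested on simulated data. The simulated probes all had the same SD, so that test does not give error rates for probes of unlike spread. The occasion was a block because the study's methods pair the cultures and the labels number them. Deviations of same-numbered arrays from the cell-line mean had r = -0.046, which shows no pairing in the values. A permutation of 2 against 2 cannot give a p under 0.333 and was not used.

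Genes enter by the tested probe of the highest mean. All members are named but 1, which is not reported here, and of other lists the called genes and up to 4 with the smallest p. The members and lists were chosen with earlier results of these data known, and no test was made over a list. Sequences are RefSeq's. Alternatives were other normalizations, detection limits and variance models, no block, single occasions and each array left out.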

Additional observations from a re-analysis of the deposited data

How the results depend on the processing

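No member was called with another normalization, detection limit or variance model, or without the block. With 1 array left out (fits without the block, where the lone array is assumed to vary like the duplicates), DDIT4 and SLC3A2 were called lower without A549/vec replicate 2, so that 0 to 2 members were called lower and 0 higher. The dimmer WARS probe and the dimmest ATF4 probe also passed the test there (-0.49 each). The number of transcripts called over all tested probes was 98, and it depended on the setting: 12 with no replicate block, 21 with neqc, 7 with median scaling of the signals, 33 over probes detected on all 4 arrays, 2 with a detection p under 0.05, 0 with no detection filter (1984 at an unadjusted p under 0.05), and 12 to 868 with an array left out (12 and 21 without A549/146b replicates 1 and 2, 49 and 868 without A549/vec replicates 1 and 2). The block thus changed that number and no member's call. Without it, CPS1, PPP1CB and the 5 immediate early genes were not called either (adjusted p 0.0691 to 0.287). Of these genes, only FOSB was called with neqc (adjusted p = 0.0211 from limma). None was called with median scaling, with no detection filter or at a detection p under 0.05.

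The median of the synthetases was -0.04 with median scaling, -0.08 over probes detected on all 4 arrays, -0.09 with no detection filter or a detection p under 0.05, -0.10 over all tested probes of the members, -0.10 and -0.09 on the single occasions, and -0.11 to -0.07 with an array left out. That of the amino acid and stress genes was -0.01 with median scaling and -0.19 to 0.01 with an array left out (A549/146b replicate 2 and replicate 1), and the difference of the medians ran from -0.12 to 0.09. Median scaling, which removes no background, moved the median of all tested probes to 0.01 and turned 7 members near 0 to the other sign: HARS had 0.03, IARS 0.02, VARS 0.01, YARS 0.02, PHGDH 0.01, ATF4 0.02 and SLC7A5 0.00. With an array left out, ASNS ran from -0.36 to 0.15, ATF4 from -0.23 to 0.15, CEBPB from -0.54 to 0.02, SLC3A2 from -0.75 to 0.09, SLC7A5 from -0.17 to 0.12, PHGDH from -0.19 to 0.11, TRIB3 from -0.25 to 0.01, VLDLR from -0.03 to 0.15, HARS from -0.08 to 0.02, IARS from -0.11 to 0.05, NARS from -0.11 to 0.34, RARS from -0.02 to 0.18, TARS from -0.26 to 0.01, VARS from -0.15 to 0.08 and YARS from -0.13 to 0.07. The cause was not tested. The normalized signals of FARSB, SESN2 and CHAC1 lay at background, so that nothing can be said of their change.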
